A study of Rattus norvegicus with 12 samples.

Results

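The genes of the cytosolic ribosome were followed in rat pubocaudalis, a pelvic floor muscle, after a simulated birth injury (SBI, vaginal balloon distention). Members were the genes whose symbol begins with Rpl or Rps and a number, or is Rplp0, Rplp1 or Rplp2, without S6 kinases and without names marked as pseudogene, l1 or like, and whose mean reached 5 CPM (counts relative to the library's total) in at least 1 of 4 groups. This left 75 of 30206 genes. Of these, 28 carried the name of a canonical small subunit protein and 40 that of a large subunit protein, under 66 distinct names. The other 7 were Rpl3l, Rpl30l2, Rpl31l4, Rpl36al, Rps15al4, Rps27l and Rps19bp1, of which Rps19bp1 encodes a binding partner of Rps19 and not a ribosomal protein. Just inside the level cutoff stood a second gene named Rps13 (5.87 CPM in its highest group) and Rps4x (5.45 CPM). Rps4x reached 5 CPM only in the non-lactating group of 1 week, and the second Rps13 gene only in the lactating group of 1 week. The cutoff itself favoured a high value in that group, so their differences from it are given as description only. Just outside stood Rpl37 (4.39 CPM) and Rps27a (2.57 CPM), and 13 matching genes in all fell under the cutoff.

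All animals were 3-month-old female Sprague-Dawley rats that underwent SBI in late pregnancy. After delivery the pups were removed (groups 1wk SBI and 3wk SBI, non-lactating) or stayed with the dam (groups 1wk SBI + Lac and 3wk SBI + Lac, lactating), and muscle was taken 1 or 3 weeks after SBI. Each of the 4 groups held 3 libraries of polyadenylated RNA, and each library pooled RNA of 2 rats. Pregnancy and injury were thus shared by all groups, uninjured muscle was not analysed here, and p-values measure the spread between pools.

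Library totals ran from 10082734 to 75634391 counts, and all 75 members passed the low-count filter. Skeletal muscle fiber genes (10 of 11 listed were tested) summed to between 93095 and 219419 CPM. The 1-week values were whole counts and the 3-week values carried decimals, so time and the way of counting cannot be told apart in any comparison of 3 weeks with 1 week. The third library of each non-lactating group stood apart from its group in the ratio of Rpl3l to Rpl3, and 3wk SBI replicate 3 also had the highest sum of macrophage genes (953 CPM). The values of Rpl3 and Rpl3l and the counts of calls that these libraries enter are given with and without them.

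As background, a cytosolic ribosome is built from a small subunit, which reads the mRNA, and a large subunit, which joins amino acids and carries the stalk of P0, P1 and P2 that recruits elongation factors. The mRNAs of ribosomal proteins are abundant and typically begin with a run of pyrimidines, the terminal oligopyrimidine (TOP) tract, through which mTOR signalling sets their translation. Striated muscle has a paralog of its own for a large subunit protein: Rpl3l, restricted to heart and skeletal muscle, takes the place of the general Rpl3, which lies close to the peptidyl transferase center.

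The start sites of the genes on which the results turn are shown from RefSeq (build GRCr8), because such a pyrimidine run is typical of ribosomal protein mRNAs. A promoter entry was found for 57 of 73 member names. Each line gives 15 bases before the annotated start and 15 from the start on, in the direction of the gene. Capitals mark a run of at least 5 C or T that begins with C within 10 bases of the start. They open at such a C even where C or T also stand just before it, as in Rps2, Rplp1 and Rpl3l.
Rpl3 (chr7:113507976-113508005, minus strand): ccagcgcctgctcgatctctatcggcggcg
Rpl3l (chr10:14258431-14258460, plus strand): gacctctggtgcctggtggggaggtCCCTT
Rplp0 (chr12:46718376-46718405, minus strand): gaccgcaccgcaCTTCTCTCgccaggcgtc
Rplp1 (chr8:71290858-71290887, minus strand): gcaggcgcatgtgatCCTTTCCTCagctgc
Rps2 (chr10:14251833-14251862, plus strand): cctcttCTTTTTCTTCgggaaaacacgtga
Rpl31 (chr9:49143096-49143125, plus strand): ccacaatccctcgcgCCTTTCCTTTCCaac
Rps28 (chr7:15311319-15311348, minus strand): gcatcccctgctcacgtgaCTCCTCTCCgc
Rps12 (chr1:23500060-23500089, plus strand): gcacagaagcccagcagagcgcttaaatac
Rpl24 (chr11:58128391-58128420, minus strand): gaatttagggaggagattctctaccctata

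Such a run stood near the start of 42 of the 57 member names (73.7%), against 28.9% of 33469 promoters of the same length. In 26 of the 57 the marked run began within 5 bases of the start. The search also took runs that opened before the annotated start, as in Rps2, and those bases lie outside the annotated mRNA. On the opposite strand the same search found it in 15.8% of member names and 34.8% of all promoters. In Rplp1 and Rpl31 the marked run began at the annotated start itself. In Rpl3l it began 10 bases downstream and reached past the window shown. None was found for Rpl3, Rps12, Rpl24 or Rplp2. The rule passes over C and T stretches that open with T, as at the start of Rpl3 and just after that of Rpl24. A miss thus does not show that pyrimidines are absent there. A match describes these letters only.

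Levels are given as CPM scaled by the trimmed mean of M values (TMM). They are not divided by transcript length, so genes are not ranked by number of transcripts. On this scale the members with the highest mean over all libraries were Rplp0 (743 CPM), Rps2 (658 CPM) and Rpl4 (584 CPM). Those with the lowest were Rps4x (3.48 CPM), the second Rps13 gene (4.25 CPM) and Rps15al4 (7.83 CPM). The within-group SD of log2 CPM had a median of 0.12 over the members and 0.21 over all 14599 genes tested. The 2 sets were not matched by level, so the members are not shown to be tighter than other genes of their level. The tightest member was Rpl10 (SD 0.070), which joins the large subunit late in assembly, and the loosest was Rps15al4 (SD 1.62).

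Some canonical names shared their counts with copies. Rps4x held 1.05% of the counts under its name, most of the rest lying in a pseudogene entry, and Rpl30 held 23.4%, most of the rest lying in Rpl30l2. Rpl31 held 60.3% and Rps10 48.7%. The counting could split the reads of these genes, so their values are uncertain. Of 77 names, 15 had under 90% of their counts in the gene of that name. Rpl3, Rplp1 and Rplp2 had no copy in the table, while Rps12 held 99.1%, Rps28 98.7% and Rpl24 99.8% of theirs.

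At 1 week the Rpl3 levels of the lactating libraries all lay below, and their Rpl3l levels all above, those of the non-lactating libraries, although neither passed the test on all libraries. Rpl3 (ENSRNOG00000016896) was measured at 256, 216 and 164 CPM in 1wk SBI and at 135, 128 and 156 CPM in 1wk SBI + Lac. All 3 lactating libraries lay below all 3 non-lactating ones, at 139 ± 14.6 against 212 ± 46.2 CPM (SD, n = 3). Rpl3l (ENSRNOG00000014641) was measured at 268, 282 and 445 CPM in 1wk SBI and at 451, 543 and 470.1 CPM in 1wk SBI + Lac. Here all lactating libraries lay above the non-lactating ones, at 488 ± 48.9 against 332 ± 98.6 CPM (SD, n = 3). By edgeR the log2 fold change (log2FC) was −0.60 (SE 0.177, adjusted p = 0.0988) for Rpl3 and 0.56 (SE 0.186, adjusted p = 0.128) for Rpl3l, so that neither passed. Both passed when 1wk SBI replicate 3 was left out, with a log2FC of −0.76 and 0.83 (edgeR adjusted p = 0.0184 and 0.00923). In that fit 921 of 14803 genes tested were called, against 83 of 14599 on all libraries, so passing there was not particular to this pair. Neither passed with any other single library left out, where between 2 and 26 genes were called in all. Without 1wk SBI replicate 1 the log2FC was −0.44 and 0.42 (edgeR adjusted p = 0.395 and 0.464). Both passed by DESeq2 on all libraries (adjusted p = 0.0284 and 0.0495), where 823 of 13812 genes with an adjusted p were called.

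The count ratio of Rpl3l to Rpl3 within a library needs no scaling. It was 1.05, 1.31 and 2.72 in 1wk SBI and 3.35, 4.25 and 3.02 in 1wk SBI + Lac. At 3 weeks it was 4.20, 4.67 and 2.28 without lactation and 5.87, 5.10 and 7.13 with it. At either time every lactating library exceeded every non-lactating library, and the third non-lactating library lay at the edge of its group both times. The geometric means were 1.55 and 3.50 at 1 week and 3.55 and 5.98 at 3 weeks. The log2 difference was 1.17 at 1 week and 0.75 at 3 weeks. Each gave p = 0.1 in an exact two-sided permutation test, the smallest p that 3 libraries against 3 allow (adjusted p = 0.168 over 32 such tests). With the third non-lactating library left out the differences were 1.58 and 0.43. With 1wk SBI replicate 1 left out the 1-week difference was 0.89. With 3wk SBI replicate 2 left out the 3-week difference was 0.95.

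**Figure D1:**
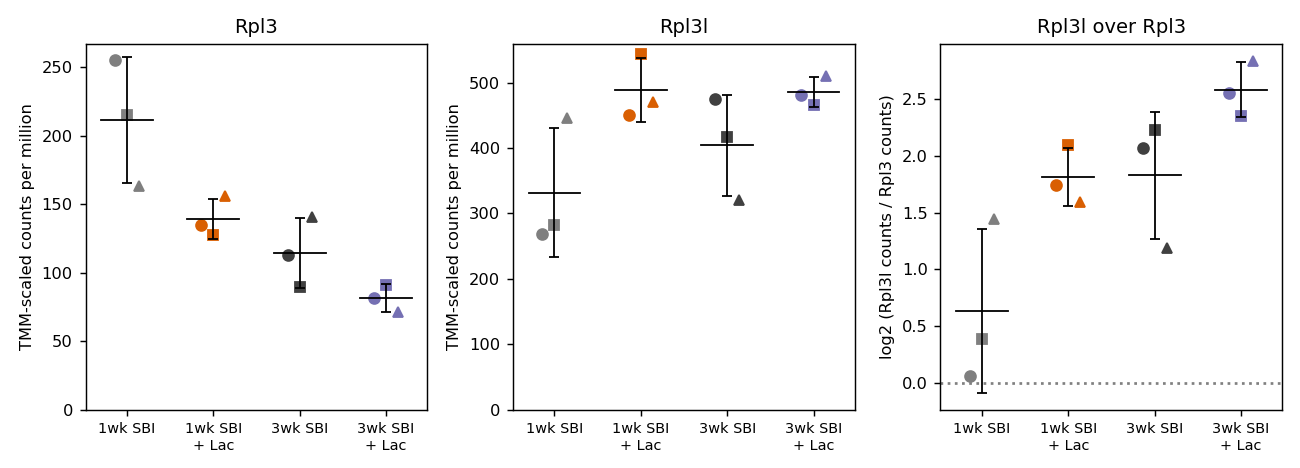
TMM-scaled CPM of Rpl3 (left) and Rpl3l (middle) and log2 of their count ratio (right) in each of 12 libraries, by group (circles, squares and triangles are replicates 1, 2 and 3, the line is the mean and the bar ± 1 SD, n = 3). The ratio of every lactating library lies above every non-lactating library of the same week.

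Marker genes of other cells differed between the same groups. Regenerating fiber genes (5 of 5 tested) summed to between 1336 and 3268 CPM in 1wk SBI and to between 685 and 1141 CPM in 1wk SBI + Lac. At 3 weeks they summed to between 194 and 703 CPM without lactation and to between 145 and 176 CPM with it. All 5 of them, all 6 listed fibroblast genes and all 4 listed genes of dividing cells had a lactation log2FC below 0 at both times, and none of these passed. Of 9 macrophage genes 8 at 1 week and 9 at 3 weeks lay below 0, with 1 called lower each time, and of 6 T cell genes tested all lay below 0, with 0 and 2 called lower. Mammary epithelium genes (3 of 6 tested) summed to 0 CPM in all 1wk SBI libraries and to at most 0.0120 CPM in 3wk SBI, and to between 0.330 and 39.4 CPM in the lactating libraries. Erythroid genes (4 of 5 tested) all had a lactation log2FC above 0 at both times, and 0 were called. They summed to between 242 and 414 CPM in 1wk SBI and to between 556 and 780 CPM in 1wk SBI + Lac. Their sums at 3 weeks were 97.3 to 183 CPM without and 132 to 242 CPM with lactation, with overlap. Muscle fiber genes summed to between 93095 and 146399 CPM in 1wk SBI and to between 143102 and 170000 CPM in 1wk SBI + Lac. At 3 weeks they summed to between 134984 and 183075 CPM without lactation and to between 196521 and 219419 CPM with it, without overlap. The part of these cells in the Rpl3 and Rpl3l values was not tested, and in bulk muscle fewer cells of a type and less RNA per cell cannot be told apart.

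Across the family at 1 week, 0 of 75 members passed an adjusted p of 0.05 by edgeR, where 0.233% of all genes tested were called lower and 0.336% higher. At an unadjusted p under 0.05 there were 2 lower members, Rpl3 and Rps4x (9.16% of all genes), and 1 higher member, Rpl3l (9.76% of all genes). Of these, Rps4x is a member only through its level in 1wk SBI. DESeq2 called 2 members, the Rpl3 pair (5.96% of all genes with an adjusted p were called). The median log2FC of the members was 0.076 beside −0.0038 for all genes, but −0.17 when libraries were scaled to their totals, where the median of all genes was −0.25. By TMM, 13 of 75 members had a log2FC below 0 (50.5% of all genes). In 26 members all lactating libraries lay above all non-lactating ones (14.3% of all genes), and the reverse held for Rpl3 alone, 1 of 75 (14.1% of all genes). The 26 included the 3 stalk genes. Rplp0 gave 866, 795 and 789 CPM in 1wk SBI and 870.5, 897 and 930.3 CPM in 1wk SBI + Lac (log2FC 0.14, edgeR adjusted p = 0.584).

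At the lower end of the 1-week values stood Rps4x, with a log2FC of −0.94 (SE 0.432, edgeR adjusted p = 0.262) on levels of 1.27 to 6.46 CPM, and then Rpl3. Then came a second gene named Rpl22 (ENSRNOG00000069581, log2FC −0.20), Rpl9 (−0.11) and Rpl30 (−0.10). Among the highest, after Rpl3l, were the second Rps13 gene (ENSRNOG00000067444, log2FC 0.38), Rpl14 (0.21) and Rpl7a (0.20). None passed by edgeR. Both Rps4x and the second Rps13 gene are members only through 1 of the groups compared here. Rpl14 and Rpl7a, both of the large subunit, gave −0.032 and −0.042 when libraries were scaled to their totals.

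The share of a library's counts that lay in the 75 genes gave another view, free of TMM. It was 1.71, 1.77 and 1.41% in 1wk SBI and 1.42, 1.42 and 1.60% in 1wk SBI + Lac, and the groups overlapped. At 3 weeks it was 1.25, 1.03 and 1.20% without lactation and 1.16, 1.24 and 1.18% with it, again with overlap. All 6 libraries of 3 weeks lay below all 6 of 1 week. The count ratio of small to large subunit genes was 0.609 without and 0.611 with lactation at 1 week (exact permutation p = 1), and 0.568 and 0.572 at 3 weeks (exact permutation p = 0.7), so that no shift between the subunits was detectable with lactation. All 1-week libraries had a higher ratio than all 3-week libraries, and the time difference gave an exact two-sided permutation p = 0.1 without and with lactation, the smallest possible (adjusted p = 0.168).

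**Figure D2:**
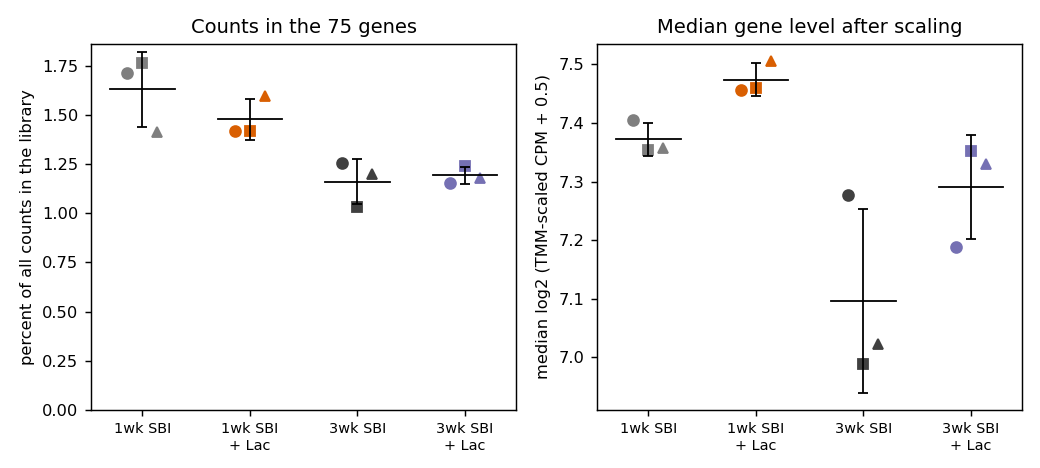
Percent of each library's counts that lie in the 75 genes (left) and the median of their log2 TMM-scaled CPM (right), by group (circles, squares and triangles are replicates 1, 2 and 3, the line is the mean and the bar ± 1 SD, n = 3). With lactation the 1-week mean is lower on the left (1.48 against 1.63%) and higher on the right (7.47 against 7.37), so the direction at 1 week depends on the scaling.

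At 3 weeks most members were somewhat higher in 3wk SBI + Lac than in 3wk SBI, but no member passed by edgeR on all libraries. The median log2FC was 0.21 beside −0.019 for all genes, and 0.036 beside −0.20 when libraries were scaled to their totals. By TMM, 6 of 75 members lay below 0 (52.3% of all genes). By edgeR 0 members were called (1.19% of all genes were called lower and 1.35% higher). At an unadjusted p under 0.05 there were 23 higher members (9.88% of all genes) and 1 lower member, Rpl3 (11.2% of all genes). DESeq2 called 9 members, all higher (4% of all genes with an adjusted p were called higher). The groups did not overlap in 16 members that were higher (11.9% of all genes) and in 1 that was lower, Rps15al4 (10.4% of all genes). Without 3wk SBI replicate 1 the median was 0.31 and 6 members were called, all higher (1.82% of all genes). Without 3wk SBI replicate 3 the median was 0.14 and 0 were called (0.833% of all genes).

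Nearest to the threshold stood Rps28 and Rpl31. Rps28, a small protein near the mRNA exit of the small subunit, gave 38.0, 32.7 and 34.5 CPM in 3wk SBI and 43.5, 45.4 and 45.6 CPM in 3wk SBI + Lac. Its groups did not overlap, and its log2FC was 0.36 (SE 0.0909, edgeR adjusted p = 0.0507). Rpl31, which lies at the exit of the peptide tunnel, gave 82.9, 71.2 and 72.6 CPM in 3wk SBI and 104, 103 and 91.7 CPM in 3wk SBI + Lac. Its groups did not overlap either, and its log2FC was 0.40 (SE 0.102, edgeR adjusted p = 0.0523).

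Among the other large values at 3 weeks were those of Rps4x (log2FC 0.69) and Rpl30l2 (0.40), at edgeR adjusted p = 0.431 and 0.0995. At the lower end stood Rps15al4, a copy of Rps15a listed at 0 in 1 library, with a log2FC of −1.50 (SE 1.31, edgeR adjusted p = 0.552). Rpl3 gave 113, 89.3 and 141 CPM in 3wk SBI and 81.8, 91.4 and 71.6 CPM in 3wk SBI + Lac, with overlap and a log2FC of −0.49 (SE 0.178, edgeR adjusted p = 0.139). Further low values were those of the second Rpl22 gene (−0.19) and Rpl30 (−0.10). Rpl3l gave 474, 417 and 321 CPM in 3wk SBI and 480.3, 466 and 511 CPM in 3wk SBI + Lac, with overlap (log2FC 0.27, SE 0.186, edgeR adjusted p = 0.437). Without 3wk SBI replicate 3 the log2FC was −0.30 for Rpl3 and 0.13 for Rpl3l.

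**Figure D3:**
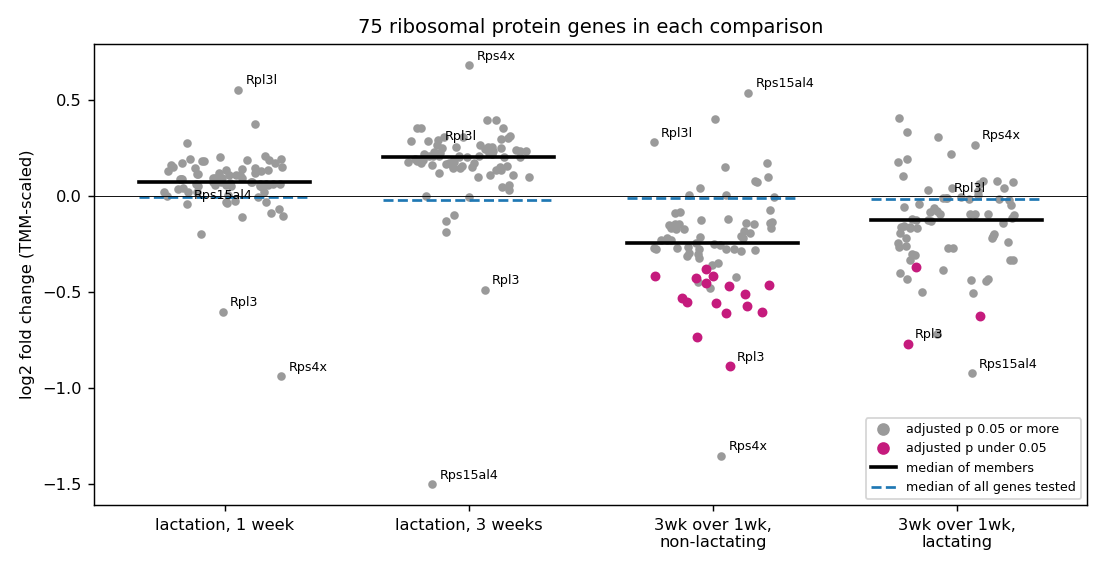
The log2FC (TMM-scaled) of each of the 75 genes in the 2 lactation comparisons and the 2 time comparisons, with pink points past an adjusted p of 0.05 by edgeR and grey points not; the black line is the median of the members and the dashed blue line that of all genes tested. No gene passes in the lactation comparisons, 16 pass below 0 over time without lactation and 3 with it. Scaled to library totals the 1-week lactation median is −0.17.

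Members with known roles outside protein synthesis or in disease were not called with lactation by edgeR on all libraries. DESeq2 called Rpl10 higher at 3 weeks, and edgeR called Rps6 higher at 3 weeks without 3wk SBI replicate 1. Rps6, the substrate of S6 kinase, was measured at 278 ± 7.75 and 297 ± 5.98 CPM without and with lactation at 1 week and at 298 ± 55.0 and 368 ± 30.7 CPM at 3 weeks (SD, n = 3). Rps19, mutated in Diamond-Blackfan anemia, gave 149 ± 14.7 and 166 ± 3.74 CPM at 1 week and 122 ± 7.58 and 137 ± 5.38 CPM at 3 weeks (SD, n = 3). Rpl5 and Rpl11, which bind Mdm2 when free of the ribosome, had group means of 343 to 388 CPM and of 143 to 182 CPM, and Rpl10 one of 276 to 337 CPM. With lactation Rps6, Rpl5 and Rpl11 were higher without overlap at 1 week, as were 14.3% of all genes. Their log2FC was 0.096, 0.13 and 0.090 (edgeR adjusted p = 0.724, 0.587 and 0.658). At 3 weeks Rps19 and Rpl10 were higher without overlap, as were 11.9% of all genes. Their log2FC was 0.17 and 0.29 (edgeR adjusted p = 0.359 and 0.137). Rps27a and Rpl38 had no member, as most counts under their names lay in entries that the name rule left out.

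Among the copies and paralogs, Rpl30l2 had group means of 83.8 to 118 CPM, Rpl31l4 of 55.1 to 69.5 CPM, Rpl36al of 36.5 to 47.3 CPM and Rps19bp1 of 10.5 to 12.4 CPM. Rps27l, a p53-responsive paralog of Rps27, gave 33.9 ± 7.82 and 35.5 ± 2.24 CPM without and with lactation at 1 week and 23.3 ± 3.96 and 22.9 ± 2.18 CPM at 3 weeks (SD, n = 3). None was called with lactation by edgeR, and DESeq2 called Rpl30l2 higher at 3 weeks.

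No difference between the lactation effects at 1 and 3 weeks was detected. In the test of the difference 0 members were called by edgeR, where 1 gene of all tested was called, lower (0.00685%), and DESeq2 called 0 members (0.075% of all genes). At an unadjusted p under 0.05 there were 3 members with a more positive effect at 3 weeks (1.67% of all genes), Rpl31, Rps10 and Rps4x, and 0 with a more negative one (2.75% of all genes). Of the 3, Rps4x is a member only through its level in 1wk SBI. All 3 shared the counts of their name with copies. With copies of a name summed, 0 members had an unadjusted p under 0.05 by edgeR. The median difference was 0.11 on the log2 scale, beside −0.017 for all genes.

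From 1 to 3 weeks without lactation, 16 of 75 members fell by edgeR (21.3%), where 2.42% of all genes tested fell. Rising members numbered 0 (2.63% of all genes rose), with 1 higher at an unadjusted p under 0.05, the second Rpl22 gene (11.3% of all genes). DESeq2 called 22 lower and 0 higher (4.14% and 5.28% of all genes). The median log2FC was −0.25 beside −0.0086 for all genes, and 64 of 75 members lay below 0 (51% of all genes). In 32 members all 3-week libraries lay below all 1-week libraries (11.4% of all genes). With only the groups compared in the fit, or without 1wk SBI replicate 1, 1wk SBI replicate 2 or 3wk SBI replicate 2, 2 members were called, Rps12 and Rps28, both lower. In these fits, in the same order, 0.609%, 0.435%, 0.814% and 0.506% of all genes were called lower. Without 1wk SBI replicate 3, 18 were called, 1 of them, Rpl3l, higher, beside 9.84% of all genes in either direction, and without 3wk SBI replicate 3, 12 were called, all lower (6.75% of all genes). Scaled to library totals the median was −0.50 beside −0.26 for all genes, and 51 members were called, all lower (6.29% of all genes).

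The members that fell came from both subunits and the stalk. Of the small subunit these included Rps12 (log2FC −0.73), Rps28 (−0.61), Rps20 (−0.57), Rps2 (−0.55), Rps21 (−0.53), Rps24 (−0.46) and Rps10 (−0.42). Of the large subunit they were Rpl3 (−0.88), Rpl39 (−0.60), Rpl31 (−0.42) and Rpl36a (−0.38), beside the whole stalk, Rplp2 (−0.51), Rplp0 (−0.47) and Rplp1 (−0.42). Rps27l (−0.55) fell as well. Their edgeR adjusted p ran from 0.00428 for Rps28 to 0.0499 for Rps27l. Rps12, of the beak of the small subunit, gave 87.9, 88.0 and 80.9 CPM at 1 week and 53.4, 48.5 and 52.8 CPM at 3 weeks, without overlap. Rps28 gave 53.9, 54.6 and 51.3 CPM at 1 week, all above its 3-week values. Rps12 and Rps28 were called in all 18 other fits of this comparison, the one with copies of a name summed included. With copies summed 14 members were called, all lower, and Rpl31 and Rps10 were not among them (352 of 14564 genes were called lower).

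Copies of a name were compared because the way of counting differed between the times. Of the 26 members with no other gene of their name, 4 fell, with a median log2FC of −0.23. Of the 42 canonical members that shared their name with others, 11 fell, with a median of −0.27. Of all genes tested 2.42% fell. Of the 14 fallen members with a promoter entry, 10 held the pyrimidine run, beside 42 of 57 among all member names. Regenerating fiber genes also fell over this time, 4 of 5 past the test, and the part of these cells in the members' fall was not tested.

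From 1 to 3 weeks with lactation, 3 members fell by edgeR (4%, against 1.33% of all genes): Rpl3 (log2FC −0.77, adjusted p = 0.0421), Rps28 (−0.37, adjusted p = 0.0488) and Rps27l (−0.63, adjusted p = 0.0488). Rising members numbered 0 (0.678% of all genes rose), with 3 higher at an unadjusted p under 0.05 (8.36% of all genes). DESeq2 called 13, of which Rpl24 was higher (6.09% of all genes). Leaving out any 1 of the 6 libraries compared left 0 members called, where 0.685%, 0.933% and 0.338% of all genes were called without 1wk SBI + Lac replicates 1, 2 and 3 and 0.366%, 0.277% and 0.566% without those of 3wk SBI + Lac. The median log2FC was −0.12 beside −0.016 for all genes, 58 of 75 members lay below 0 (52.3% of all genes), and 28 were lower without overlap (14.7% of all genes). By edgeR on all libraries no member passed both an adjusted p of 0.05 and an absolute log2FC of 1 in any of the 4 lactation and time comparisons. In other fits of the time comparison without lactation Rpl3 passed both: at −1.04 without 1wk SBI replicate 3, at −1.07 without 3wk SBI replicate 3, at −1.22 without both, and at −1.14 scaled to library totals (edgeR adjusted p = 0.00171, 0.00385, 0.000122 and 0.0222). By DESeq2 Rps4x passed both (−1.34, adjusted p = 0.0318), but it is a member only through its level in 1wk SBI, a group compared here.

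Some members had a log2FC above 0 over time. Rpl24, of the large subunit, gave 202, 215 and 209 CPM in 1wk SBI and 259.9, 235 and 212 CPM in 3wk SBI, which overlapped. With lactation it gave 225, 228 and 216 CPM at 1 week and 261, 294 and 291 CPM at 3 weeks, which did not overlap. Its log2FC was 0.17 without and 0.34 with lactation (edgeR adjusted p = 0.377 and 0.115). Rps6 had a log2FC of 0.10 and 0.31 (edgeR adjusted p = 0.710 and 0.216). In the same order the second Rpl22 gene had 0.40 and 0.41, Rps15al4 0.54 and −0.92, and Rpl3l 0.28 and −0.0075, and none of these passed by edgeR on all libraries. Without 1wk SBI replicate 3, Rpl3l rose over time without lactation, at 0.55 (edgeR adjusted p = 0.0345). At the lower end, Rps4x (−1.35 without lactation) and the second Rps13 gene (−0.72 with lactation) did not pass by edgeR either, while DESeq2 called Rps4x lower without lactation. Over all 75 members the time log2FC without and with lactation, which share no library but share the way of counting, had a Pearson r of 0.42 and a Spearman rho of 0.72, given as a description. Without Rpl3, Rpl3l, Rps4x and Rps15al4, left out after their values were seen, the r was 0.86 over the other 71.

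**Figure D4:**
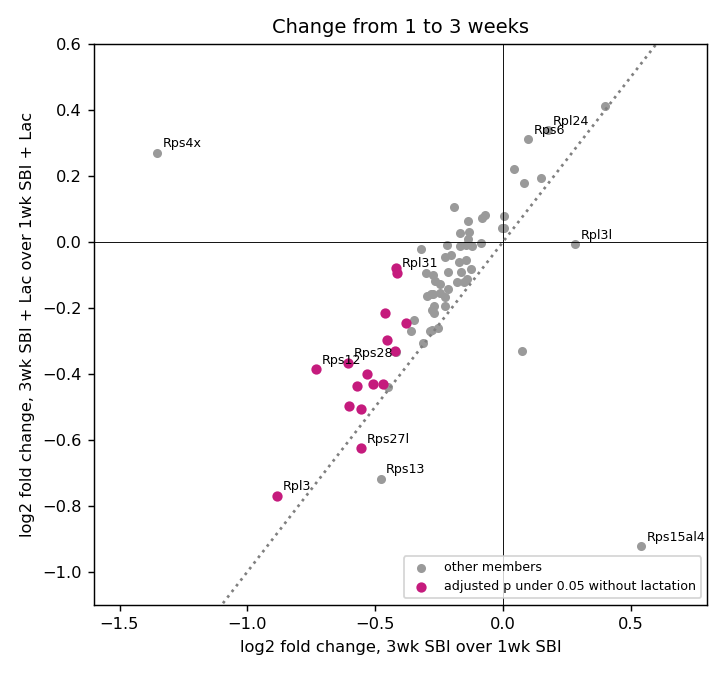
The log2FC (TMM-scaled) from 1 to 3 weeks of each of the 75 genes without lactation (x axis) and with lactation (y axis), with pink points past an adjusted p of 0.05 by edgeR without lactation and a dotted line of equal change. Rpl3 lies low on both axes, Rpl24 and Rps6 lie above 0 on both, and Rps4x and Rps15al4, with few counts, lie away from the rest.

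Shares within the family's own counts need no scaling. The stalk genes held 10.2, 10.1 and 10.1% of the counts in the 75 genes in 1wk SBI and 10.4, 10.3 and 10.4% in 1wk SBI + Lac. At 3 weeks they held 8.67, 8.69 and 8.58% without and 8.66, 8.45 and 8.52% with lactation. All 1-week libraries thus lay above all 3-week libraries. Rps6 held 1.90 to 2.09% at 1 week and 2.30 to 2.78% at 3 weeks, and Rpl24 held 1.42 to 1.57% and 1.91 to 2.13%, with all 3-week libraries above all 1-week libraries. Rps28 held 0.370 to 0.401% at 1 week, and 0.280 to 0.317% without and 0.320 to 0.335% with lactation at 3 weeks. Each of these time comparisons gave p = 0.1 in the exact two-sided permutation test, the smallest possible (adjusted p = 0.168). The shares shown were chosen after the values were seen, and that choice favoured such separation.

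**Figure D5:**
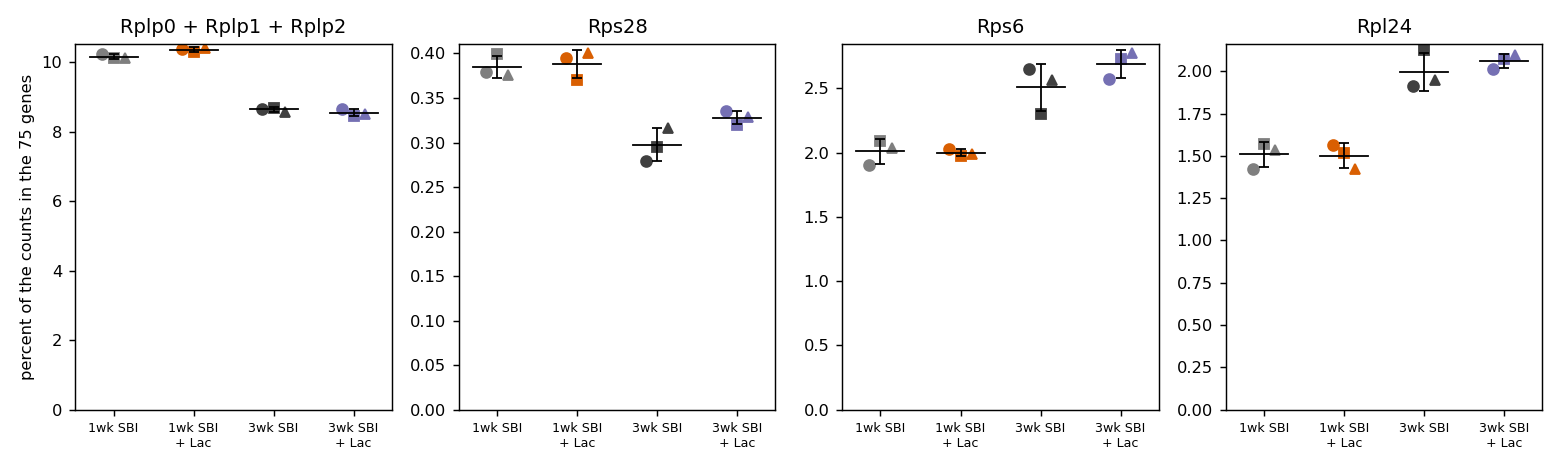
Percent of the counts in the 75 genes that lie in the 3 stalk genes, Rps28, Rps6 and Rpl24 in each library, by group (circles, squares and triangles are replicates 1, 2 and 3, the line is the mean and the bar ± 1 SD, n = 3). The stalk share lies between 10.1 and 10.4% in the 1-week libraries and between 8.45 and 8.69% in the 3-week libraries.

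Other genes of translation were read from lists. Of all genes tested, edgeR called 1.35% higher with lactation at 3 weeks. From 1 to 3 weeks it called 2.42% lower and 2.63% higher without lactation, and 0.678% higher with it. The calls named here and in the next paragraph stand beside these shares and are no result about a list as a whole. Mitochondrial ribosomal proteins (74 tested) had lactation medians of 0.18 and 0.13, with 1 call, Mrpl42, higher at 3 weeks (log2FC 0.46, edgeR adjusted p = 0.0439). From 1 to 3 weeks without lactation their median was 0.10, where that of the members was −0.25. Ribosome biogenesis genes (43 tested) had lactation medians of −0.021 and 0.092 and 1 call, the small nucleolar RNP gene Nop10, higher at 3 weeks (0.49, edgeR adjusted p = 0.0363). Bop1, a factor of large subunit assembly, fell from 1 to 3 weeks without lactation (−0.56, edgeR adjusted p = 0.00671), as did Rrp12 (−0.53, adjusted p = 0.0486), and the nucleolar chaperone gene Npm1 rose over the same time in the lactating groups (0.50, edgeR adjusted p = 0.0346).

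Of 12 elongation and termination factors 0 were called with lactation by edgeR. Of these, Eef1a1 is the general form of elongation factor 1 alpha and Eef1a2 the form of adult muscle. Their lactation log2FC at 1 week was −0.45 and 0.33 (edgeR adjusted p = 0.167 and 0.208). Eef1a1 fell from 1 to 3 weeks without lactation (−0.66, edgeR adjusted p = 0.0357). Of 35 initiation factors 0 were called with lactation, and Eif1, which guides start codon choice, rose over time without and with lactation (0.70 and 0.91, edgeR adjusted p = 0.00966 and 0.00364). Eif4a1, the cap-binding complex helicase, and Pabpc1, the poly(A)-binding protein, fell over time without lactation (−0.63 and −0.63, edgeR adjusted p = 0.0116 and 0.0292), and the helicase paralog Eif4a2 rose over time with lactation (0.72, edgeR adjusted p = 0.0315). Of 12 regulators of ribosomal protein mRNA translation 1 was called with lactation, Eif4ebp1, the mTOR target that restrains cap-dependent translation, higher at 3 weeks (0.60, edgeR adjusted p = 0.00934). Of 9 other TOP mRNAs tested from a list of their own 0 were called in any comparison. That list did not hold Eef1a1 or Pabpc1, so its count does not cover these 2 genes.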

How the data were processed

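RNA of pubocaudalis muscle, pooled from 2 rats per library, was sequenced as stranded polyadenylated libraries (12 in all). The authors deposited gene values that are raw counts at 1 week. The authors deposited expected counts (estimated counts, with decimals) at 3 weeks, where whole counts had been assumed in planning, and these were rounded for the tests. Salmon is named per the labels, with no role, and the genome build is not given in the sources used here. The members and lists were chosen with earlier results of these data known. All libraries entered 1 fit in edgeR 4.0.16 (R 4.3.3) with TMM scaling, filterByExpr (14599 of 30206 genes kept), the robust quasi-likelihood test over 4 groups and Benjamini-Hochberg adjustment over all genes tested. The SE is the log2FC divided by the square root of F. DESeq2 1.42.0 was an alternative, and other alternatives changed the scaling, the filter and the libraries. Named members were the 5 most positive and 5 most negative in each lactation comparison, the 3 largest in each direction over time, the Rpl3 pair, the stalk, 7 genes with special roles, the paralogs, and the 3 highest and 3 lowest by level; a few genes that fall under this rule or the lists are not reported here. The other members called over time, those printed for their groups that did not overlap or their share, and the genes named from other lists were chosen after their values were seen. Start windows came from the RefSeq table of GRCr8, matched by symbol. The test was checked on simulated data.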

Additional observations from a re-analysis of the deposited data

How the results depend on the processing

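The replicate numbers did not pair the libraries: deviations of same-numbered libraries correlated between −0.307 and 0.0071 over 12 pairs, and 0 pairs correlated best with their own number. With the replicate number as a block, 8 members were called over time without lactation and 0 with it. Of all 14599 genes tested 450 and 154 were called in these comparisons. The block left 0 members called for lactation at either time and for the difference of the effects (13, 178 and 2 of all genes were called). For lactation at 1 week, 2 members were called by DESeq2 and between 0 and 2 with single libraries left out. Of all genes, 823 of 13812 were called by DESeq2 and between 2 and 921 with single libraries left out. For lactation at 3 weeks, 1 was called with RLE factors, 1 with upper-quartile factors, 2 with at least 10 counts in every library, 9 by DESeq2 and between 0 and 6 with single libraries left out. In the same order 373, 395, 407 and 1075 of all genes were called, of 14599, 14599, 11401 and 13812 with an adjusted p. With single libraries left out between 58 and 526 genes were called. Over time with lactation, 6 were called with upper-quartile factors, 6 with at least 10 counts in every library, 13 by DESeq2, 11 with only the libraries compared and 0 with any single library left out. In the same order 308, 302, 864 and 1047 of all genes were called, of 14599, 11401, 14192 and 13646 with an adjusted p. With single libraries left out between 41 and 140 genes were called. Over time without lactation, 2 were called with only the libraries compared and between 2 and 18 with single libraries left out. Of all genes, 128 of 14439 were called with only the libraries compared and between 102 and 2083 with single libraries left out. An absolute log2FC over 1 as well left 0 in both time comparisons by edgeR on all libraries, but Rpl3 or Rps4x in 5 other fits without lactation. With single libraries left out, the median log2FC ran from 0.14 to 0.31 for lactation at 3 weeks and from 0.049 to 0.21 for the difference of the effects.

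Chosen after seeing the data, scaling to library totals gave medians of −0.17 and 0.036 for lactation at 1 and 3 weeks and of −0.50 and −0.31 over time without and with lactation, with 51 and 14 members called over time. Beside these, 1065 and 417 of all 14599 genes were called over time. Only the named members were followed one by one, and among them this scaling changed the sign of 2. It reversed Rpl7a (−0.042) and Rpl14 (−0.032) at 1 week. The median of all members at 1 week changed sign as well, from 0.076 by TMM, so many other members did too. Leaving out the third library of both non-lactating groups, also chosen after seeing the data, gave 2 members called for lactation at 1 week and 11 over time with lactation. Of all 14624 genes tested there, 1833 and 1001 were called in these comparisons. Without mitochondrially encoded and hemoglobin counts the share of counts in members was 1.64% with lactation at 1 week, and 1.33% without and 1.36% with it at 3 weeks, and for canonical names only it was 1.13% in the last. With single libraries left out, again only the named members were followed, and none that changed sign passed the test. Rpl30 changed sign with lactation (from −0.30 to 0.084 at 1 week and from −0.38 to 0.22 at 3 weeks). Over time with lactation, Rpl3l (from −0.050 to 0.075) and Rps15al4 (from −1.50 to 0.16) changed sign. The causes were not tested. Rps15al4 was not tested with at least 10 counts in every library.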
